A study of Mus musculus with 130 samples.

Results

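The comparison of standard chow with an iron-sufficient diet (50 ppm) was read in liver RNA of 6 male C57BL/6J mice, 3 per diet, out of 130 mice in the whole series. The labelled chow and 50 ppm mice were taken from the diet table, and every gene that passed a filter on low counts entered the test, 13560 of the 35274 genes listed. In that table, 9 further male C57BL/6J mice had eaten 500 ppm iron, 2% carbonyl iron (20000 ppm), or 2% carbonyl iron with cellulose named as the fibre source, 3 per diet, and they shared the estimate of the spread. The rest of the libraries came from a strain panel fed 2% iron and were not used here. The mice carry no transgene or deletion in the labels, and the labels give no age, feeding time or batch for the diet study. They give no iron content for chow. Apart from the iron content of the other diets, and the cellulose in 1 group, the labels do not describe what the diets contained. Ingredients such as fat, fibre, protein source and plant matter thus cannot be told apart from iron between chow and the 50 ppm diet. Each library was made from RNA of 1 mouse, so p-values measure the spread between mice.

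Chow is a cereal-based laboratory food with many plant compounds, whereas diets with a set iron content are usually mixed from refined ingredients. The liver clears foreign compounds in steps. Cytochrome P450 enzymes and carboxylesterases first oxidise or cleave them, transferases then attach glutathione, glucuronic acid or sulfate, and transporters export the products. Nuclear receptors CAR and PXR, the aryl hydrocarbon receptor (AhR) and the stress factor NRF2 are known to raise separate, overlapping sets of these genes when ligands or electrophiles arrive.

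Between chow and 50 ppm, 53 of the 13560 genes were called at an adjusted p under 0.05 (edgeR quasi-likelihood test, Benjamini-Hochberg adjustment), which is 0.391% of the genes tested. Of these, 36 were higher on chow (0.265%) and 17 were lower (0.125%). Values are CPM, read counts relative to library size, scaled with TMM factors, a normalisation for library composition, and changes are log2 differences, chow minus 50 ppm. All 53 genes had groups that did not overlap, which the calls themselves make likely, since 2312 of all genes tested (17.1%) had groups without overlap, 1204 higher on chow (8.88%) and 1108 lower (8.17%). The 21 rises and 10 falls larger than 2-fold were led by xenobiotic enzymes on one side and by Lepr and Apoa4 on the other. The median change over all genes was 0.0037, and 50.8% of them were higher on chow. At an unadjusted p under 0.05 stood 1408 genes.

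The 6 libraries held 10.42 to 14.18 M counts (M, mega). On the first principal component of these 6 mice (29.4% of the variance) the chow mice lay at 1.68 to 33.1 and the 50 ppm mice at -26.3 to -12.4. On the second (21.6%) the first 50 ppm mouse (replicate 1) had a value of 41.4, the other mice values of -16.1 to 1.83. Without that outlying mouse 62 genes were called, with 34 of the 53 among them. The count rested on other mice too. It was 4 without 50 ppm replicate 3, 6 without 50 ppm replicate 2, 7 without chow replicate 2 and 15 without chow replicate 1. Without chow replicate 3 it was 60, with 37 of the 53 among them. None of the 53 genes changed direction in these 6 fits. Apoa4, Steap2, 9130409I23Rik and Gm4956 were called in each of them. Hepatocyte markers were high in every mouse, summing to 94651 to 111066 CPM over 10 genes. Of the defining markers of other tissue, Prss2 and Pnlip of the exocrine pancreas and Lep of adipocytes had 0 counts in all 6 mice. Their lists were not empty, however. Exocrine pancreas markers summed to 9.16 to 13.4 CPM on chow and 6.57 to 10.2 CPM on 50 ppm. Adipocyte markers summed to 4.61 to 6.90 CPM and 6.96 to 8.02 CPM, and erythroid markers to 101.5 to 137 CPM and 68.03 to 109.6 CPM.

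The 7 lists of xenobiotic genes held 148 tested genes, and 17 of them (11.5%) were called higher on chow and 0 lower, against 0.265% and 0.125% of all genes. Their median change was 0.28, and 77.7% of the 148 were higher on chow. Without 50 ppm replicate 3 the count of 17 became 0, without 50 ppm replicate 2 it was 1, without chow replicate 2 it was 3, without chow replicate 1 it was 6 and without 50 ppm replicate 1 it was 12, while all 17 kept their direction.

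**Figure D1:**
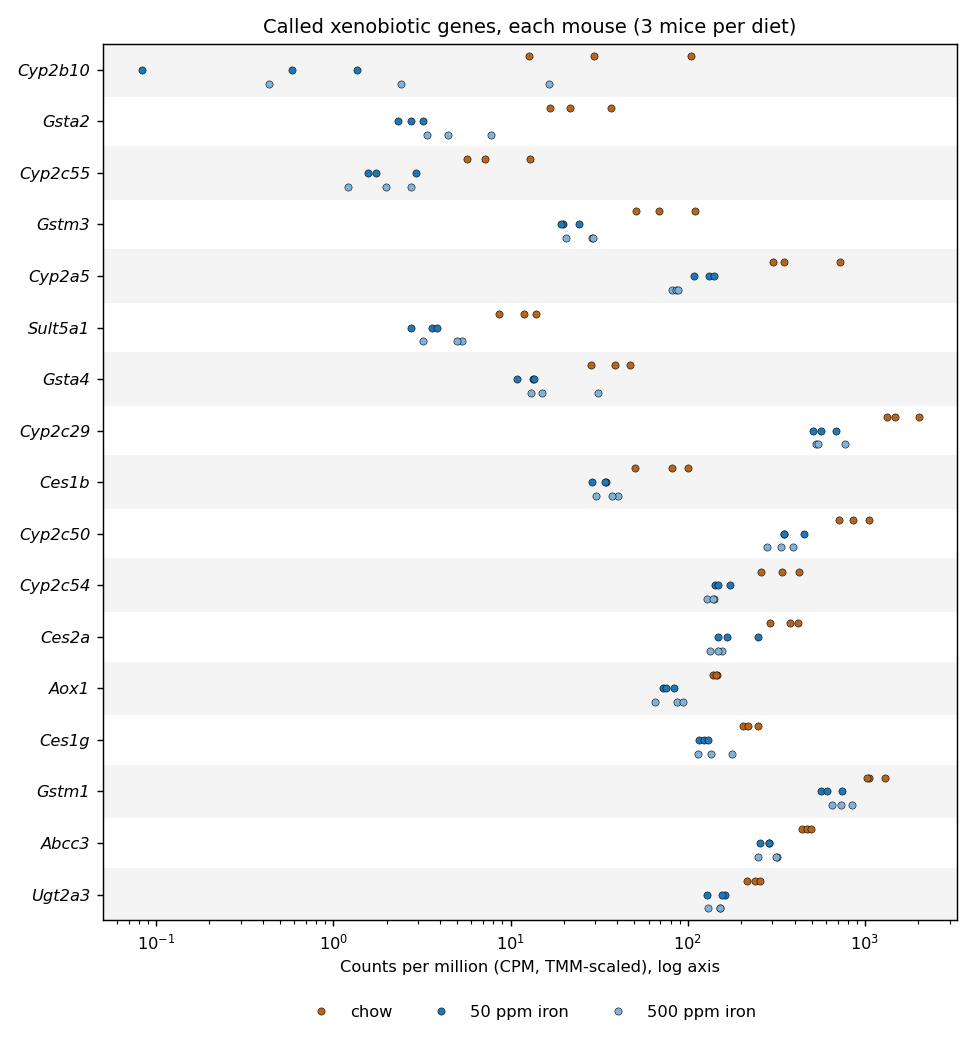
CPM on a log axis of the 17 called xenobiotic genes in each mouse, 1 point per mouse, for chow, 50 ppm and 500 ppm (3 mice each), ordered by the log2 change. In each row the 3 chow mice lie to the right of the 3 mice on 50 ppm, and the 500 ppm mice lie mostly over the 50 ppm mice.

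The P450 genes called were 6, and all were higher on chow. Cyp2b10 (ENSMUSG00000030483, chromosome 7 at 25897620 to 25926624 of GRCm38), the classic target gene of CAR, was at 29.5, 103.6 and 12.7 CPM in the chow mice and at 0.58, 1.35 and 0.083 CPM in the 50 ppm mice. The chow mice thus spread over a wide range, and all lay above the 50 ppm mice. The 50 ppm libraries held only 6, 14 and 1 counts of it. The ratio of the summed counts, scaled for library size, was 71.1 (exact 95% interval 46.3 to 115.1, counting error only), and the fitted change was 6.21 (SE 1.17, adjusted p 0.0383). On 500 ppm it was at 2.41, 16.5 and 0.43 CPM, so that 1 of these mice lay above the lowest chow mouse, and chow against 500 ppm gave an adjusted p of 0.146. Without chow replicate 2 the change against 50 ppm was 4.99 (adjusted p 0.181). Of the 6 fits that each left out 1 chow or 50 ppm mouse, the one without chow replicate 3 called Cyp2b10 and the other five did not. With limma on the deposited TPM its change was 5.21 on log2(TPM + 0.1) (adjusted p 0.08) and 3.71 on log2(TPM + 1) (adjusted p 0.0593).

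Cyp2c29 (ENSMUSG00000003053, chromosome 19 at 39269405 to 39330713), a P450 of the 2C family that CAR activators are known to raise, was abundant and steadier. It stood at 1479, 2005 and 1323 CPM on chow, at 685, 511 and 565 CPM on 50 ppm and at 525, 542 and 770 CPM on 500 ppm. The lowest chow mouse was above every mouse on the other 2 diets. Its change was 1.45 (SE 0.18, adjusted p 0.00397), and the only mouse whose absence ended the call was 50 ppm replicate 3 (1.42, adjusted p 0.0536). Its neighbours Cyp2c50 (1.18, adjusted p 0.0144), Cyp2c54 (1.14, adjusted p 0.0421) and Cyp2c55 (2.04, adjusted p 0.0383) also rose. Cyp2c50 went from 385 ± 60.7 to 870 ± 167 CPM (SD, n = 3), while Cyp2c55 was scarce, at 2.07 ± 0.73 and 8.56 ± 3.80 CPM. Whether reads of these neighbouring copies were shared in the estimate of the counts was not tested.

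Cyp2a5, which hydroxylates coumarin and nicotine, was at 301, 724 and 347 CPM on chow and at 132, 107.7 and 140.2 CPM on 50 ppm. The lowest chow mouse was above the highest 50 ppm mouse, and chow replicate 2 was the highest of all, as it also was for Cyp2b10 and Cyp2c29. Its change was 1.85 (SE 0.33, adjusted p 0.0353). Without 50 ppm replicate 3 none of the 6 called P450 genes passed (adjusted p 0.0536 to 0.206). Only Cyp2c29 passed without 50 ppm replicate 2 or without chow replicate 2. The number passing was 3 without chow replicate 1, 3 without 50 ppm replicate 1 and 6 without chow replicate 3. Cyp3a11, the main PXR target among mouse P450s, was not called. It stood at 6502, 8770.01 and 3949 CPM on chow and 3565, 1632 and 1739.6 CPM on 50 ppm, without overlap (1.47, adjusted p 0.0673). Of 31 tested CAR and PXR targets, 7 were called higher and 0 lower, against 0.265% and 0.125% of all genes. In this list 29 were higher on chow (93.5%, against 50.8% of all genes), and the median was 0.59. The receptors themselves stood at 282 and 268 CPM (Nr1i3, CAR) and 69.9 and 62.9 CPM (Nr1i2, PXR), chow and 50 ppm means, with adjusted p-values of 0.957 and 0.687. Of the 33 other P450 genes only Cyp2c54 was called. The abundant Cyp2e1, at 5934 and 6331 CPM, had a change of -0.09 (adjusted p 0.876).

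The stretch of 250 bases before a RefSeq start of 4 called genes is shown because these genes represent the groups that rose: the largest rise, the P450 with the smallest adjusted p, the largest rise among transferases, and Pir, an NRF2 target chosen after its match was seen. The sequences are those of RefSeq on GRCm38.p6, 5′ to 3′ in the direction of the gene. For all 4 genes the RefSeq start lies inside the annotated gene span, and far inside it for Cyp2c29 and Gsta2. The span takes in transcripts that start further upstream. For Cyp2b10 the span starts at 25897620, so the marked match nearest the RefSeq start lies inside it. Capitals mark, on either strand, the antioxidant response element core TGACNNNGC, the xenobiotic response element core GCGTG and the nuclear receptor half-site AGGTCA.
Cyp2b10 (chr7:25897408-25897657, plus strand): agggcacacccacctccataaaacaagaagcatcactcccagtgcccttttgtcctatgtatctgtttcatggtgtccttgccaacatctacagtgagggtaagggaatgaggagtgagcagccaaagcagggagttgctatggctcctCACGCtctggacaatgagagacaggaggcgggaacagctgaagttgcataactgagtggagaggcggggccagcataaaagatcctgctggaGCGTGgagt
Cyp2c29 (chr19:39286835-39287084, plus strand): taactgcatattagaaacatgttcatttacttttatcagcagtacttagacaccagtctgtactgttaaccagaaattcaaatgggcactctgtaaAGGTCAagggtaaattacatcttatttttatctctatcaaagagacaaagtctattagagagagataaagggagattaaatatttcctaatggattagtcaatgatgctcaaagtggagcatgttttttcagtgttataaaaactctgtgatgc
Gsta2 (chr9:78347146-78347395, minus strand): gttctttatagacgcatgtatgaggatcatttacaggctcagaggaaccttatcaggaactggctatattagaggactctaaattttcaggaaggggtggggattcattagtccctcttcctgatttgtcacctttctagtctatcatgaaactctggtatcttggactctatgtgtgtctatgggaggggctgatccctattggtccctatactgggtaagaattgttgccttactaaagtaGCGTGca
Pir (chrX:164269181-164269430, plus strand): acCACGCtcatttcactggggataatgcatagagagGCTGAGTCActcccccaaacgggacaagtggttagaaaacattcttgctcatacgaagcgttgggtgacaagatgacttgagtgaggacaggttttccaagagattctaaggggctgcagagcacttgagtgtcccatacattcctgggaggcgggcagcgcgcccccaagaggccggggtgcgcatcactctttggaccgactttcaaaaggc
The table held 51 such promoters for 41 of the 53 genes. The antioxidant core was in 5 of 32 promoters of genes higher on chow (15.6%), in 4 of 19 of genes lower on chow (21.1%) and in 10.16% of all 32851 promoters. The xenobiotic core was in 31.2%, 42.1% and 28.16%, the half-site in 6.25%, 10.5% and 14.02%, and CCAAT in 50.0%, 42.1% and 33.85%. The sterol element TCACNCCAC was in 0 of the 51 and in 1.053% of all. These are matches of letters in a short window, given as a description.

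Conjugating enzymes formed the next group, with 4 glutathione transferases, 1 sulfotransferase and 1 glucuronosyltransferase called, all higher on chow. Gsta2 (ENSMUSG00000057933, chromosome 9 at 78331018 to 78355788), an alpha-class glutathione transferase known to respond to NRF2, was at 21.5, 36.9 and 16.6 CPM on chow, 3.20, 2.32 and 2.73 CPM on 50 ppm and 3.36, 7.70 and 4.46 CPM on 500 ppm. No mouse of the other 2 diets reached the lowest chow mouse. The change was 3.18 (SE 0.48, adjusted p 0.0144). Gsta1, its close copy, stood at 4.79, 9.88 and 1.24 CPM against 0.48, 0.29 and 1.74 CPM, with overlap (2.58, adjusted p 0.353), and the split of reads between the pair is uncertain.

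Gstm3, of the mu class, was at 68.8, 109.1 and 51.1 CPM on chow against 19.9, 24.3 and 19.2 CPM on 50 ppm, a change of 1.85 (SE 0.26, adjusted p 0.00924). Gstm1, which was far more abundant, went from 636 ± 91.6 to 1125 ± 146 CPM (0.82, adjusted p 0.0363), and Gsta4, which conjugates products of lipid peroxidation, from 12.6 ± 1.51 to 38.2 ± 9.39 CPM (1.60, adjusted p 0.0383). All 21 tested glutathione transferases were higher on chow, against 50.8% of all genes, with a median of 0.45. Only 4 passed the test, against 0.265% of all genes called higher. Of the 21, 9 had groups without overlap, against 8.88% of all genes in that direction. The sulfotransferase Sult5a1 was at 13.9, 8.57 and 11.9 CPM on chow and 3.59, 3.87 and 2.73 CPM on 50 ppm (1.76, adjusted p 0.0201). The glucuronosyltransferase Ugt2a3 went from 149 ± 18.3 to 236 ± 19.9 CPM (0.66, adjusted p 0.0196). Of the 25 glucuronosyltransferase and sulfotransferase genes tested, these 2 were called and 19 were higher on chow. In that direction 13 had no overlap, against 8.88% of all genes. Ugt2b1 (0.96, adjusted p 0.0518) and Ugdh, which makes the glucuronic acid donor (0.97, adjusted p 0.0903), did not pass. Without 50 ppm replicate 2 or without 50 ppm replicate 3, none of the 6 called conjugating enzymes passed, with adjusted p-values of 0.0508 to 0.2 and 0.0929 to 0.181 and changes of 0.56 to 3.07 and 0.70 to 3.17. Without chow replicate 1 or without chow replicate 2, 2 passed in each case, and without 50 ppm replicate 1 there were 4.

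Among the 14 carboxylesterases, which cleave esters of drugs and lipids, 3 rose. Ces1b was at 81.7, 100.2 and 50.2 CPM against 34.5, 28.8 and 33.98 CPM (1.25, adjusted p 0.0363), Ces1g went from 122 ± 7.06 to 224 ± 21.8 CPM (0.87, adjusted p 0.0213) and Ces2a from 187 ± 53.4 to 363 ± 66.9 CPM (0.95, adjusted p 0.0439). The most abundant ones did not pass, and Ces1c at 1817 and 1813 CPM and Ces3a at 1513 and 1534 CPM were close in the 2 groups. The list had a median of 0.06. Aox1, the aldehyde oxidase, was at 139, 146 and 144 CPM on chow, 83.8, 72.9 and 75.2 CPM on 50 ppm and 86.3, 65.4 and 93.3 CPM on 500 ppm, one of the tightest separations in the table (0.89, SE 0.13, adjusted p 0.00924). Abcc3, which exports glucuronides and bile acids into blood, was at 439, 472 and 495 CPM against 289, 287 and 255 CPM (0.76, adjusted p 0.0439). None of these 5 genes passed without 50 ppm replicate 2 (adjusted p 0.0861 to 0.232), without 50 ppm replicate 3 (0.0929 to 0.226) or without chow replicate 2 (0.0565 to 0.225), only 1 passed without chow replicate 1 and 2 without 50 ppm replicate 1.

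NRF2 targets were called in 4 of 25 genes, all higher: Gsta2, Gstm3, Gstm1 and Aox1, of which 3 are also glutathione transferases. The list's median was 0.21 and 19 members were higher on chow. The glutathione synthesis gene Gclc stood at 254 and 249.2 CPM (0.03, adjusted p 0.98), Txnrd1 at 127 and 105.9 CPM (0.26, adjusted p 0.362), and Nqo1, a much used reporter of NRF2 and AhR, at 5.67 and 3.40 CPM (0.73, adjusted p 0.429). Pir, a nuclear iron-binding protein outside the list and known as an NRF2 target, was at 16.3, 16.03 and 16.2 CPM on chow and 8.34, 10.9 and 9.78 CPM on 50 ppm (0.74, adjusted p 0.0363), and none of the fits without 1 of the 6 mice called it. The AhR list had 0 of 10 genes called. Its most sensitive gene Cyp1a1 was at 0.85, 1.49 and 0.58 CPM on chow and 0.39, 1.93 and 0.25 CPM on 50 ppm, with overlap (0.19, adjusted p 0.99). Cyp1a2 was at 576, 698 and 387 CPM against 399, 295 and 179 CPM, with overlap (0.93, adjusted p 0.762).

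**Figure D2:**
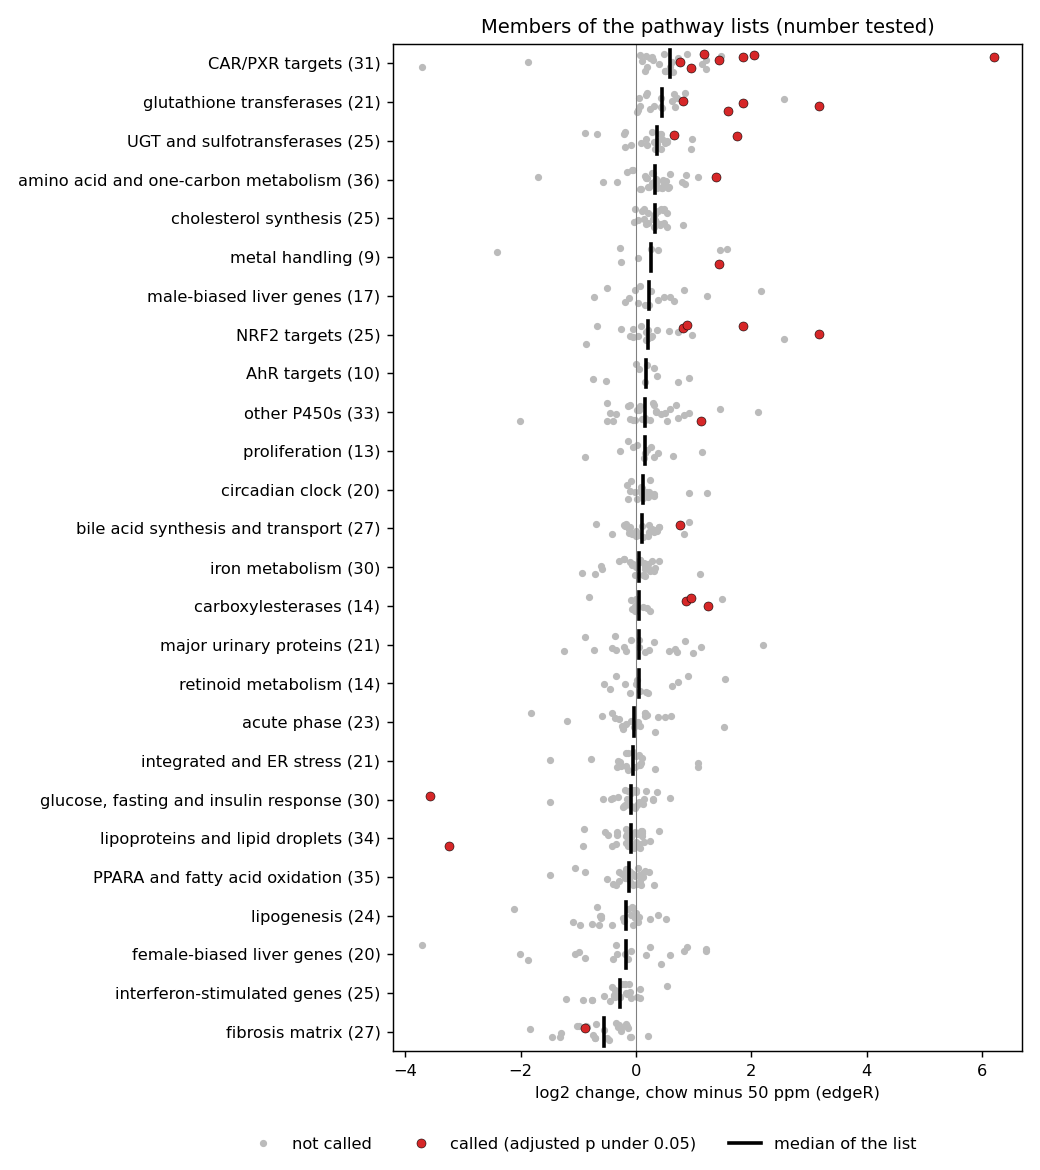
Log2 change, chow minus 50 ppm, of each tested member (point) of 26 pathway lists, with the number tested in brackets and the list's median as a bar. CAR and PXR targets (median 0.59) and glutathione transferases (0.45) stand at the top and fibrosis matrix genes (-0.55) at the bottom; members that passed the test are red.

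The 2 largest falls on chow were of genes tied to feeding and lipid. Apoa4 (ENSMUSG00000032080, chromosome 9 at 46240696 to 46243459), an apolipoprotein of triglyceride-rich particles, was at 120.4, 129 and 212 CPM on chow, 1239, 1822 and 1278 CPM on 50 ppm and 1649, 2007 and 1457 CPM on 500 ppm. The highest chow mouse was far below the lowest mouse of the other diets. The change was -3.23 (SE 0.31, adjusted p 9.83e-04), the smallest adjusted p of the comparison, and it stayed between -3.54 and -3.03, with adjusted p at most 0.0134, in the 6 fits without 1 of these mice. Lepr (ENSMUSG00000057722, chromosome 4 at 101717404 to 101815352), the leptin receptor, was at 3.95, 3.54 and 5.31 CPM on chow, 24.8, 69.8 and 58.3 CPM on 50 ppm and 32.5, 92.96 and 35.3 CPM on 500 ppm. The chow mice were close together and the others varied, with no overlap. The change was -3.56 (SE 0.59, adjusted p 0.0213). It missed the threshold without chow replicate 1 (-3.51, adjusted p 0.0948), chow replicate 2 (-3.45, 0.144), 50 ppm replicate 2 (-3.27, 0.098) and 50 ppm replicate 3 (-3.45, 0.106). With limma on the deposited TPM the change of Lepr was -2.92 on log2(TPM + 0.1) (adjusted p 0.0669) and -2.42 on log2(TPM + 1) (adjusted p 0.103).

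Other lipid genes gave few calls. Apoa4 was the only one of 34 lipoprotein and lipid droplet genes called, and the list's median was -0.09. None of 24 lipogenesis genes passed, 6 were higher on chow and the median was -0.17. Pklr, the liver pyruvate kinase that carbohydrate is known to raise, came nearest, at 191, 257 and 256 CPM against 359.7, 628 and 394 CPM (-0.97, adjusted p 0.0644). Scd1, the main fatty acid desaturase, ranged from 5275 to 11232.5 CPM on chow and from 5942 to 21300.3 CPM on 50 ppm. None of 35 fatty acid oxidation genes under PPARA passed (median -0.12). Cholesterol synthesis genes leaned the other way, with 23 of 25 higher on chow and a median of 0.33. None passed, and 3 had groups without overlap, all higher on chow, against 8.88% of all genes. Lepr was the only one of 30 glucose, fasting and insulin response genes called (median -0.08). Of 27 bile acid genes only Abcc3 was called, and Cyp7a1, the rate-limiting enzyme of bile acid synthesis, stood at 327 and 279 CPM (0.23, adjusted p 0.904).

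Genes of amino acid and one-carbon metabolism were mostly higher on chow, 30 of 36 against 50.8% of all genes, with a median of 0.34. In that direction 13 had no overlap, against 8.88% of all genes, though only Cth passed. Cth, which makes cysteine from cystathionine, was at 432, 664 and 302 CPM on chow and 174, 192 and 167 CPM on 50 ppm (1.39, SE 0.22, adjusted p 0.0193). Not called were Gls2 (0.80, adjusted p 0.0903), Ass1 of the urea cycle (0.86, adjusted p 0.172) and Bhmt (0.58, adjusted p 0.626). Slc39a4, a zinc importer, was at 54.2, 58.5 and 40.1 CPM on chow and 15.1, 19.3 and 21.6 CPM on 50 ppm (1.44, SE 0.24, adjusted p 0.0239), and was the only one of 9 metal handling genes called. Another zinc importer, Slc39a5, was at 0.094, 0.47 and 0.65 CPM on chow and 1.36, 2.51 and 2.90 CPM on 50 ppm, and was not called (-2.41, adjusted p 0.0962). The zinc-responsive metallothionein Mt1 was at 114, 82.7 and 80.4 CPM against 18.9, 33.7 and 47.9 CPM, without overlap and not called (1.46, adjusted p 0.612). The calls of both Cth and Slc39a4 were lost without 50 ppm replicate 2 (adjusted p 0.0915 and 0.122), 50 ppm replicate 3 (0.114 and 0.106) and chow replicate 2 (0.0506 and 0.144), and that of Slc39a4 also without chow replicate 1 (0.0838) and 50 ppm replicate 1 (0.0681).

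**Figure D3:**
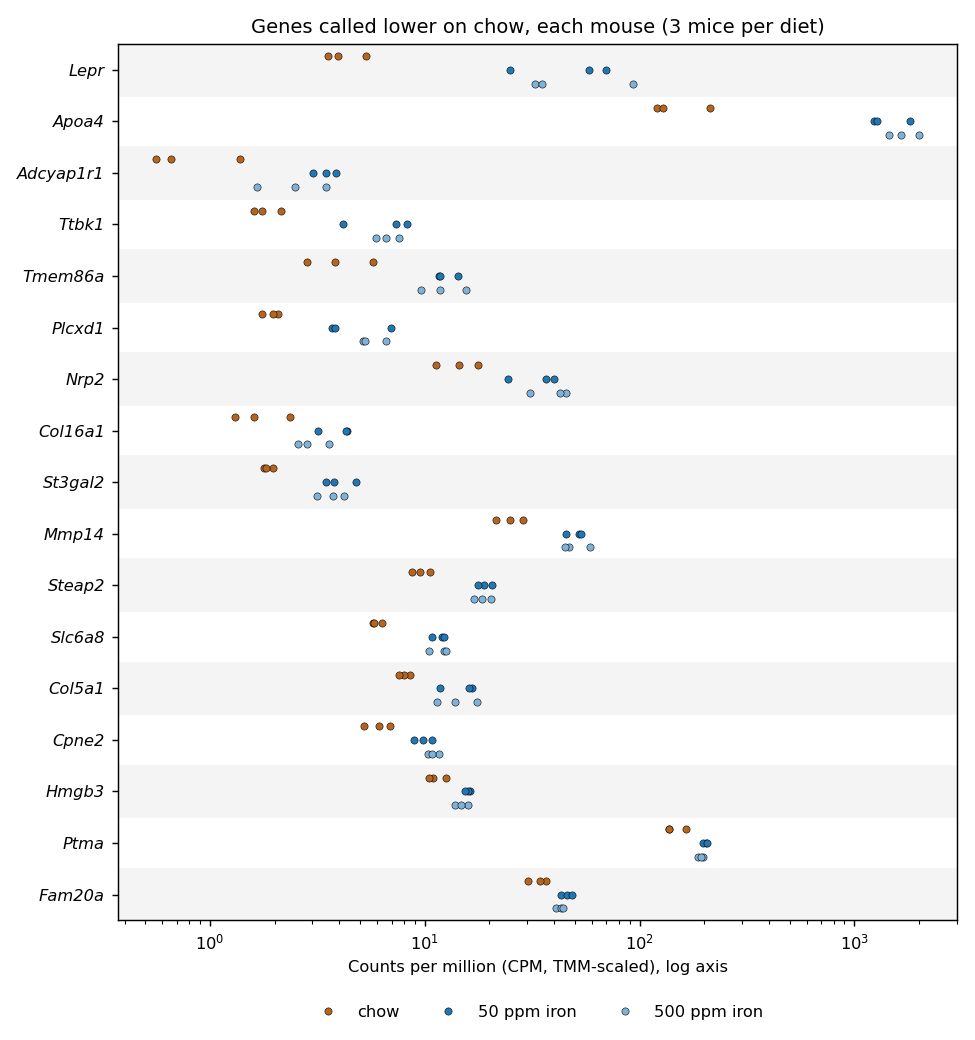
CPM on a log axis of the 17 genes called lower on chow in each mouse, 1 point per mouse, for chow, 50 ppm and 500 ppm (3 mice each), ordered from the largest fall. For Apoa4 the chow mice lie at 120.4 to 212 CPM and the other mice at 1239 CPM or more, whereas Fam20a at the bottom shows a narrow gap, 36.7 CPM at most on chow and 43.2 CPM at least on 50 ppm.

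Mmp14 and a pair of collagens were called lower on chow. They are set together here after their calls were seen. Mmp14, a membrane-bound collagenase activator, was at 28.6, 21.5 and 24.9 CPM on chow and 45.3, 52.3 and 53.2 CPM on 50 ppm (-1.01, SE 0.14, adjusted p 0.00924). The collagens Col5a1, at 8.56, 8.01 and 7.56 CPM against 11.7, 16.6 and 15.99 CPM (-0.88, adjusted p 0.0404), and Col16a1, at 2.35, 1.30 and 1.60 CPM against 3.20, 4.35 and 4.31 CPM (-1.18, adjusted p 0.0439), also passed. None of the 3 passed without 50 ppm replicate 2 (adjusted p 0.0565 to 0.2), 50 ppm replicate 3 (0.0801 to 0.205) or chow replicate 2 (0.0565 to 0.225). On the deposited TPM the change of Col16a1 shrank to -0.48 on log2(TPM + 0.1) (limma, adjusted p 0.868) and -0.26 on log2(TPM + 1) (adjusted p 0.907). Of the 27 genes on the fibrosis matrix list, which leaves out Mmp14 and Col16a1, only Col5a1 was called. However, 26 were lower on chow, and 3.7% were higher, against 50.8% of all genes. Of the 26, 17 had no overlap, against 8.17% of all genes, and the list's median was -0.55. Col1a1, the main fibrillar collagen, was at 2.82, 4.85 and 5.38 CPM on chow and 13.6, 12.4 and 20.97 CPM on 50 ppm (-1.84, adjusted p 0.169), and Col3a1 at 11.8, 13.8 and 20.9 CPM against 34.5, 33.8 and 59.7 CPM (-1.45, adjusted p 0.234). On 500 ppm Col1a1 was at 6.20, 13.3 and 18.2 CPM and Col3a1 at 12.6, 44.9 and 51.7 CPM, so 1 mouse of that diet fell among or near the chow mice.

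Markers of stellate cells, the vitamin A-storing fibroblast-like cells that make much of the liver's matrix, leaned the same way as the matrix genes. Among 11 markers, 9.09% were higher on chow, against 50.8% of all genes, and 10 were lower, with a median of -0.37 and 0 called. In that direction 5 had no overlap, against 8.17% of all genes. Any gene on both the matrix and the stellate list was counted in each. Their summed level was 201 to 225 CPM on chow and 218 to 313 CPM on 50 ppm. The defining markers were all detected. Lrat was at 11.1, 6.71 and 11.997 CPM against 12.3, 16.8 and 14.6 CPM, Reln at 62.4, 52.004 and 63.5 CPM against 54.7, 91.3 and 102.9 CPM, and Des at 3.20, 2.14 and 2.40 CPM against 2.91, 3.87 and 3.07 CPM. Their part in the matrix result was not tested. In bulk tissue, fewer cells of a type and less RNA per cell cannot be told apart. Markers of sinusoidal endothelium (median 0.09 over 17) and of macrophages (-0.01 over 16) had no gene called. The other marker lists, of lymphocytes, neutrophils, erythroid cells, exocrine pancreas, cholangiocytes, adipocytes and the periportal and pericentral zones, had 0 called as well, with medians from -0.66 for 6 erythroid genes to 0.59 for the 1 pancreas gene tested.

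**Figure D4:**
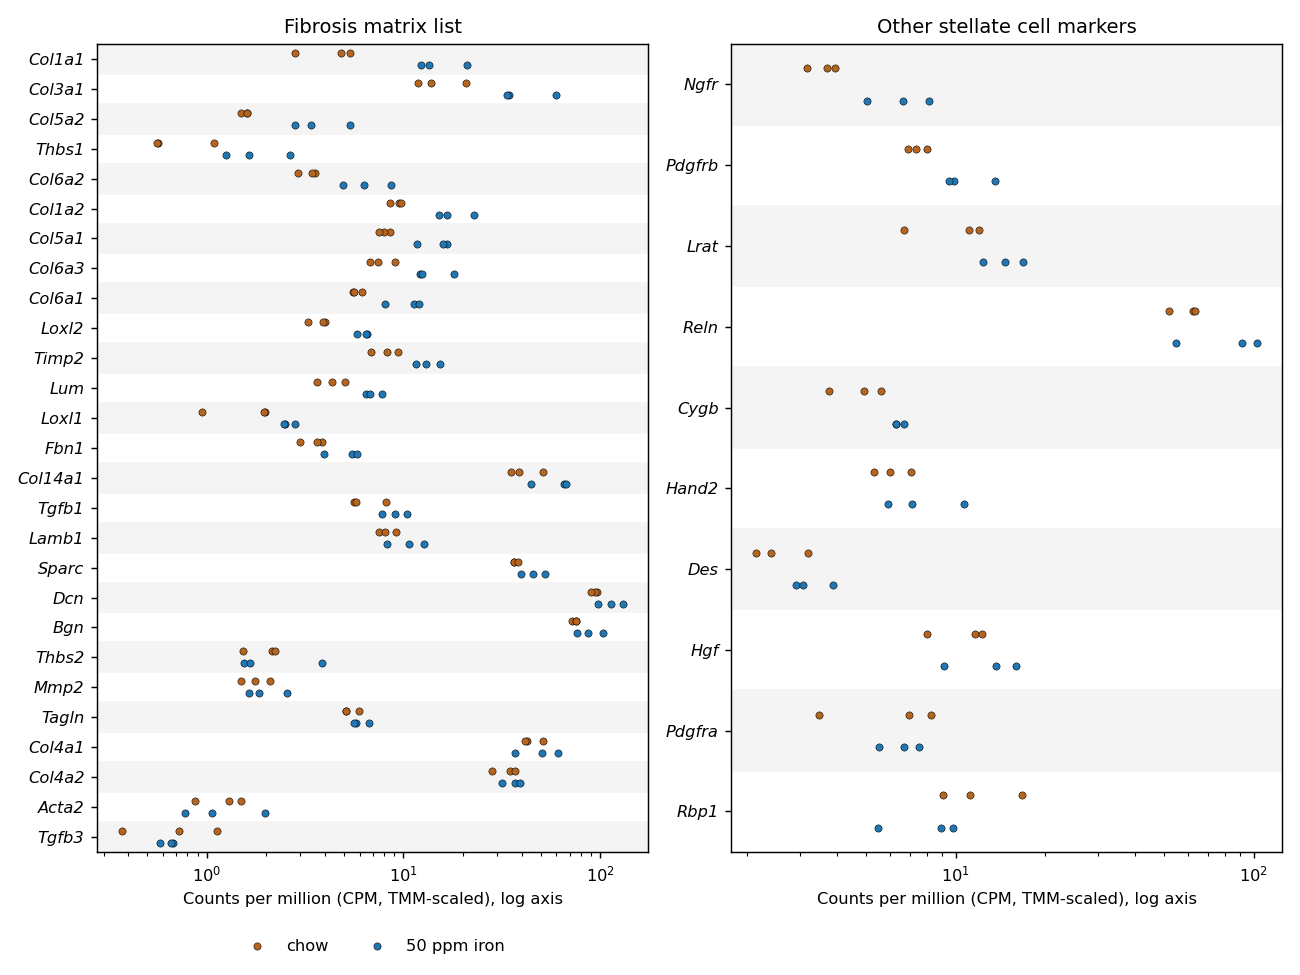
CPM on a log axis of the 27 tested fibrosis matrix genes (left) and of the stellate cell markers not on that list (right), 1 point per mouse, chow and 50 ppm, 3 mice each. For Col1a1 the chow mice lie at 2.82 to 5.38 CPM and the 50 ppm mice at 12.4 to 20.97 CPM, while the groups overlap in the lowest rows of the left panel.

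The remaining genes called lower on chow were of mixed kinds. Steap2 (ENSMUSG00000015653, chromosome 5 at 5664829 to 5694578), a metalloreductase of iron and copper, was at 9.50, 10.5 and 8.72 CPM on chow, 18.8, 20.5 and 17.7 CPM on 50 ppm and 18.4, 20.39 and 16.97 CPM on 500 ppm (-0.99, SE 0.12, adjusted p 0.00228). Nrp2, a semaphorin and VEGF co-receptor, was at 14.4, 11.3 and 17.7 CPM against 24.5, 36.8 and 40.02 CPM (-1.22, adjusted p 0.0363). The PACAP receptor Adcyap1r1, at 0.66, 0.56 and 1.38 CPM against 3.00, 3.87 and 3.48 CPM (-1.94, adjusted p 0.042), and the tau kinase Ttbk1, at 1.60, 2.14 and 1.74 CPM against 8.24, 7.35 and 4.14 CPM (-1.84, adjusted p 0.0383), were scarce. The lysoplasmalogenase Tmem86a was at 2.82, 3.82 and 5.74 CPM on chow and 11.6, 11.8 and 14.3 CPM on 50 ppm (-1.58, adjusted p 0.0213). The creatine transporter Slc6a8 was at 5.73, 6.34 and 5.82 CPM and 10.8, 11.99 and 12.3 CPM (-0.97, adjusted p 0.0196). The changes of Plcxd1, St3gal2, Cpne2, Hmgb3, Ptma and Fam20a ran from -1.32 for Plcxd1 to -0.44 for Fam20a. Of these 12 genes only Steap2 passed without 50 ppm replicate 2, 50 ppm replicate 3, chow replicate 1 or chow replicate 2. Without 50 ppm replicate 1 or without chow replicate 3, 7 passed in each case.

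Among the other genes called higher on chow, Scara5, a receptor that takes up ferritin, was at 14.2, 8.85 and 14.5 CPM on chow and 4.65, 3.67 and 1.82 CPM on 50 ppm (1.90, adjusted p 0.0439). Nat8, which acetylates cysteine conjugates on the way to mercapturic acids, was at 10.9995, 13.4 and 11.1 CPM against 5.23, 3.38 and 2.90 CPM (1.63, adjusted p 0.0439). Dpy19l3, a tryptophan C-mannosyltransferase, was at 15.2, 16.1 and 14.5 CPM against 5.72, 4.16 and 5.14 CPM (1.61, adjusted p 0.0199). The serine protease Htra4 rested on 16, 17 and 19 counts on chow and 2, 1 and 2 counts on 50 ppm. The ratio was 9.69 after scaling for library size (exact 95% interval 3.90 to 31.1, counting error only). Its fitted change was 3.20 (adjusted p 0.0383). With limma it was 2.20 on log2(TPM + 0.1) and 0.66 on log2(TPM + 1), still called. No fit without 1 of the 6 mice called Htra4, nor did the fit without the 2% iron groups. The clone gene 9130409I23Rik was at 21.5, 31.6 and 24.1 CPM against 7.17, 7.64 and 5.47 CPM (1.93, adjusted p 0.00228). Gm4956, annotated as a transcribed pseudogene, was at 14.1, 21.6 and 12.4 CPM against 3.59, 1.93 and 2.57 CPM (2.57, adjusted p 0.00228). Both fall outside the naming rule and were chosen after their values were seen. Both were called in each fit without 1 of the 6 mice. Whether reads of related genes were counted for Gm4956 was not tested. Pgrmc1, a haem-binding partner of P450s, rose from 738 ± 63.2 to 1060 ± 85.4 CPM (0.52, adjusted p 0.0363). Of the remaining genes, Gas7, Cryl1, Antxr2, Acadsb, Ikbkg, Rida, Slc22a18, Mccc2 and Hexa, the changes ran from 0.40 for Hexa to 1.21 for Gas7. Among the 17 genes of this group, Pir included, only 9130409I23Rik and Gm4956 passed without 50 ppm replicate 3 or without chow replicate 2. The count was 3 without 50 ppm replicate 2, 4 without chow replicate 1, 9 without chow replicate 3 and 12 without 50 ppm replicate 1. The annotation has Ikbkg, Acadsb, Hexa, Gas7, Sult5a1 and Plcxd1 overlapping a coding gene on the other strand, and whether the counting used strand is not given in the sources used here.

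The iron metabolism list gave no call between chow and 50 ppm in 30 genes tested, with a median of 0.06. It leaves out Steap2, Scara5 and Pir, which were called and are described above. Genes of the list moved both ways, with 8 higher and 4 lower on chow without overlap, against 8.88% and 8.17% of all genes. Hamp, which encodes the iron hormone hepcidin, was at 139.8, 96.1 and 194 CPM on chow and 203, 384 and 240.4 CPM on 50 ppm (-0.94, adjusted p 0.272), and the transferrin receptor Tfrc, at 35.6, 24.8 and 27.99 CPM against 9.60, 11.1 and 19.7 CPM (1.12, adjusted p 0.205). Both pairs of groups were free of overlap. None of 20 clock genes was called. Their spread within a diet was wide, since Dbp, a clock output, ranged from 3.20 to 70.2 CPM on chow and from 5.90 to 44.2 CPM on 50 ppm, and its part in the other results was not tested. None of 25 interferon-stimulated genes passed, although 21 were lower on chow (median -0.28). Male-biased and female-biased liver genes, major urinary proteins, acute phase, proliferation, stress and retinoid genes also had 0 called, with medians from -0.17 to 0.23. On 50 ppm the major urinary proteins summed to 57097, 23401 and 23678 CPM, against 34629 to 48287 CPM on chow. The male-biased genes summed to 29035, 14207 and 14623 CPM, against 20269 to 25713 CPM. In both lists 50 ppm replicate 1 lay above every chow mouse and the other 50 ppm mice lay below. The part of this split in the other results was not tested.

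The same 53 genes were then read in the other diets. Against 500 ppm, which shares the 3 chow mice with the comparison above and is therefore no separate evidence, 80 of all genes were called (0.59%), and the 53 had the same sign throughout, 26 of the 36 being called higher and 12 of the 17 lower. Between 500 and 50 ppm, which shares the 50 ppm mice, edgeR called 0 genes (0%), with 428 at an unadjusted p under 0.05 and 2 called by DESeq2. Of the 36 genes 19 were higher on 500 ppm and of the 17 genes 8 were, with medians of 0.02 and -0.03. Cyp2b10 had the largest of these differences, 3.41 (unadjusted p 0.0207), and Gsta4 stood at 0.67 (unadjusted p 0.044).

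The 2% iron groups share no mouse with the chow and 50 ppm groups. In 2% iron against 500 ppm, 1538 genes were called (11.3%), among them 13 of the 53. Gstm3 (1.27, adjusted p 0.00627), Cryl1 (0.79), Hexa (0.72) and Ikbkg (0.49) were higher on 2% iron, as they were on chow. Gm4956, Ces2a, Gas7, Mccc2 and Ugt2a3 were lower on 2% iron, against their rise on chow, with changes from -2.34 for Gm4956 to -0.36 for Ugt2a3. Apoa4 was higher on 2% iron (1.73, adjusted p 0.00276), at 5637 CPM against 1704 CPM on 500 ppm, opposite to its level on chow, while Nrp2, Steap2 and Hmgb3 were lower, as on chow. Cyp2b10 was not called in 2% iron against 500 ppm (2.22, adjusted p 0.0958). It stood at 37.04, 28.7 and 31.7 CPM on 2% iron and at 20.9, 26.6 and 22.8 CPM with cellulose. All these values lay within the range of the chow mice, so a high Cyp2b10 level was not particular to chow. Between the 2% iron diet labelled with cellulose and the other 2% iron diet, edgeR called 11 genes in all (0.0811%) and 0 of the 53. The named xenobiotic genes had changes from -1.04 for Sult5a1 to 1.23 for Gsta2 in that comparison, with Abcc3 (0.77) and Ugt2a3 (-0.54) nearest to the threshold, each at an adjusted p of 0.0587.

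**Figure D5:**
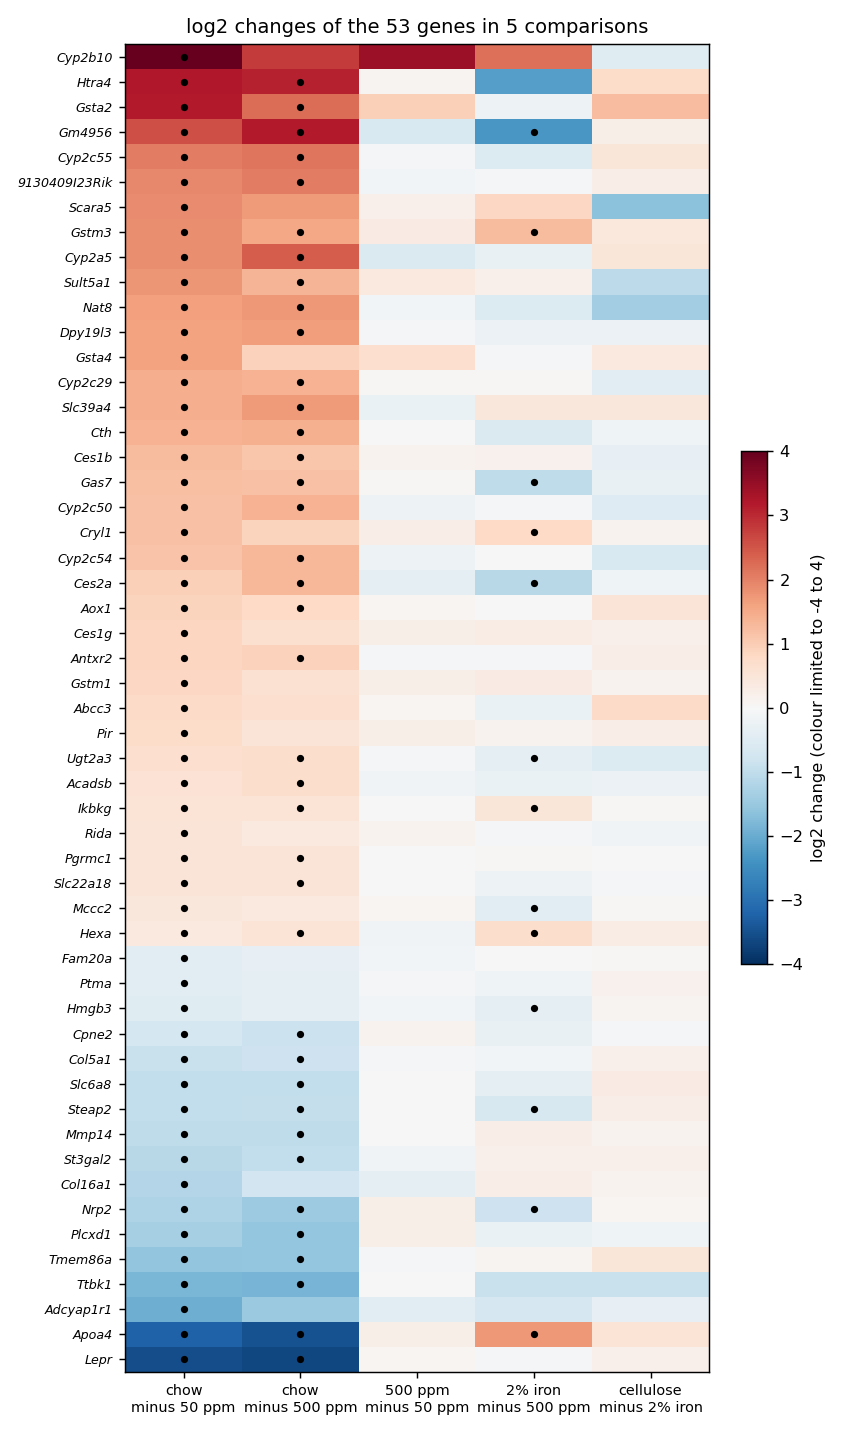
Log2 changes of the 53 genes (rows, ordered by chow minus 50 ppm) in 5 comparisons (columns), red for higher and blue for lower in the first named diet, with colours limited to -4 to 4 and a dot where edgeR called the gene. The first 2 columns share the chow mice; in the third column no gene is called, and 13 are called in the fourth.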

How the data were processed

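The authors deposited a table of expected counts per gene and one of TPM (transcript abundance scaled to a fixed total) for the same mice. Per the labels' protocols, total RNA was purified from the large lobe of the liver and libraries were made with a stranded mRNA kit. The submitters' processing notes name kallisto 0.46 and mm10. No other step is given in the sources used here. The design assumed whole counts, but 26.5% of the values were not whole, so they were rounded. Positions came from GENCODE M21 (34924 of 35274 identifiers matched) and symbols from a separate reference of gene names (34845 matched).

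The 5 diets were fitted together without covariates in edgeR 4.0.16 (R 4.3.3), with TMM factors, filterByExpr, glmQLFit, glmQLFTest and Benjamini-Hochberg adjustment, two-sided. On simulated data for chow against 50 ppm (13387 genes) this recovered 76% of genes changed 2-fold and 94% of those changed 4-fold, with 5 false among 175 calls. The lists (26 pathway, 12 marker) and the comparison were chosen with earlier results of these data known. Genes were named by a rule: the 12 largest rises and 12 largest falls among calls whose higher group averaged 1 CPM or more and whose groups did not overlap. Predicted genes, pseudogenes and unnamed clone genes were skipped. Called list members and the members marked as defining followed. Others, such as Pir, were chosen after their values were seen. Alternatives were RLE factors, other filters, fewer groups, DESeq2 1.42.0, limma 3.58.1 on log2(TPM + 1) and log2(TPM + 0.1), and each mouse left out.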

Additional observations from a re-analysis of the deposited data

How the results depend on the processing

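The count of 53 genes between chow and 50 ppm was 26 in a fit of these 2 groups alone, 21 without the 2% iron groups, 144 with DESeq2, 21 with limma on log2(TPM + 1) and 14 with log2(TPM + 0.1), and between 4 and 63 with 1 mouse left out. For chow against 500 ppm, 80 genes became 24, 35, 286, 40 and 40 in the same order, and 15 to 96 with 1 mouse left out. For 500 against 50 ppm the count of 0 became 2 with DESeq2. For 2% iron against 500 ppm, 1538 genes became 910 and 862 with the 2 limma fits, and 788 to 2204 with 1 mouse left out. For cellulose against 2% iron, 11 genes became 51 without a filter, 26 with at least 10 counts in every library, 219 with DESeq2 and 18 in both limma fits, and 0 to 212 with 1 mouse left out. Fits on fewer mice also had fewer degrees of freedom, and beyond that the cause was not tested. DESeq2 and RLE factors kept all 53 genes, limma on log2(TPM + 1) kept 19 and on log2(TPM + 0.1) kept 12, and none of the 53 changed direction in the 12 fits read gene by gene (those with other filters or without a mouse of another diet were not). Of 430 medians of the lists recomputed under alternatives, 393 moved by less than the spread between mice and 37 by more. The 17 xenobiotic genes called ranged from 0 to 24. No paired analysis was possible because the labels give no replicate numbers that link mice across diets. Depth limits the genes with the fewest counts, such as Htra4 (1 or 2 counts per 50 ppm library) and Cyp2b10 (1 to 14).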
